A study of Zea mays with 45 samples.

Results

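The genes described here are those whose transcripts increased at the base of the maize leaf and decreased in its mature part when the night was prolonged by 24 h. A probe set was kept when its mean log2 signal at 24 h of extended night exceeded that at the end of the night by at least 0.7 in the division zone and lay at least 1 below it in the mature zone (1 unit on the log2 scale is a factor of 2). The members were thus chosen by measured values, those of the 12 arrays of these groups, and there are 78 among 17555 maize probe sets. A probe set is a group of probes designed to read a transcript. Of the members, 13 carried 1 gene symbol in the array annotation and stood for 11 genes, and 65 had no name. By gene or transcript cluster number the 78 came from 70 genes or clusters of 13471 on the array, and 6 of these had several member probe sets. In at least 1 group, 77 of the 78 had a mean above 6.34, the level under which 95% of the array's reporter probe sets lay.

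The plants were Zea mays of genotype SL (KWS Einbeck), kept on a cycle of 14 light and 10 dark hours, and starvation was imposed by leaving the chamber in its night conditions past dawn. Sampling was at the end of the day (dusk below), the end of the night (dawn) and 6, 14 and 24 h into the extended night, from the division zone (up to 1.5 cm above the ligule), the elongation zone (3 to 4.5 cm) and the mature leaf, whose position the labels do not give. Each of the 45 samples was a pool of 5 plants, 3 per zone and time; 42 arrays had values, so that 2 arrays each were left for elongation and mature tissue at dusk and for mature tissue at 6 h. All groups share genotype and chamber, and no group was kept in the light over the same hours; 14 h of extended night falls on the clock hour of dusk and 24 h on that of dawn.

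A maize leaf grows from its base: cells divide next to the ligule, elongate a little further up and then mature into photosynthetic tissue, so the leaf is a gradient of cell age. The base imports sugar, while mature tissue fixes carbon and exports it. Growing cells enlarge by taking up water into the vacuole, which involves proton pumps of the plasma membrane and the vacuolar membrane and the water channels called aquaporins, while lipid transfer proteins carry lipids and are commonly linked to the cuticle that covers the epidermis.

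The zones carried the signals their names imply. At dusk the 7 measured photosystem and light-harvesting genes averaged 13.30 to 13.37 (log2 signal, range of arrays) in the mature zone and 7.57 to 7.58 in the division zone, and the 12 measured cell cycle and DNA replication genes averaged 6.28 to 6.38 in the mature zone and 9.37 to 9.41 in the division zone. The 3 measured KNOX genes, which mark the shoot meristem, lay between 5.83 and 6.39 in all zones at 14 h and dusk, near or under the dim level. Replicate 3 of the mature-zone arrays from dawn differed from the rest of its group: 1473 probe sets that were at least 2 log2 units higher in the division zone than in the mature zone at dusk averaged 7.83 on that array, against 6.67 and 6.66 on the other arrays of its group. The rule kept 85 probe sets without this array, 76 of them among the 78; gar2 and Zm.6633.1.A1_at were the members lost. With bulk tissue, fewer cells of a type and less RNA per cell cannot be told apart.

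By the rule, the increase between dawn and 24 h in the division zone had a median of 0.93 over the members (range 0.70 to 3.20), and the difference in the mature zone a median of -1.50 (range -4.26 to -1.01). These values chose the members and carry no test. Opposed differences of this size were uncommon on the array: 1004 probe sets (5.72%) passed the division criterion, 1774 (10.1%) the mature one and 0.444% both. Of those that passed the division criterion 7.77% also passed the mature one, a share not far from the 10.1% of all probe sets. At least 0.7 higher in the division zone and at least 1 higher in the mature zone were 369 (2.1%). The share at least 1 higher in the mature zone alone was not counted. The nearest members inside the division threshold were Zm.13005.1.S1_at, ZmAffx.1048.1.S1_at, Zm.19280.1.S1_at and Zm.17589.1.A1_at at 0.70 to 0.71, and the nearest probe sets outside were Zm.5721.1.S1_at, Zm.181.1.A1_at, Zm.18940.1.A1_at and Zm.16296.1.A1_at at 0.67 to 0.70. Inside the mature threshold lay Zm.8040.2.A1_x_at, Zm.11595.1.A1_at, Zm.18350.1.A1_at and Zm.2885.1.A1_at at -1.01 to -1.05, and outside it Zm.13367.1.S1_at, Zm.13367.1.S1_x_at, Zm.5105.1.A1_at and Zm.17652.1.S1_s_at at -0.99 to -0.95. Leaving out any 1 of the 12 arrays in the rule kept 67 to 86 probe sets, of which 63 to 77 were among the 78.

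**Figure D1:**
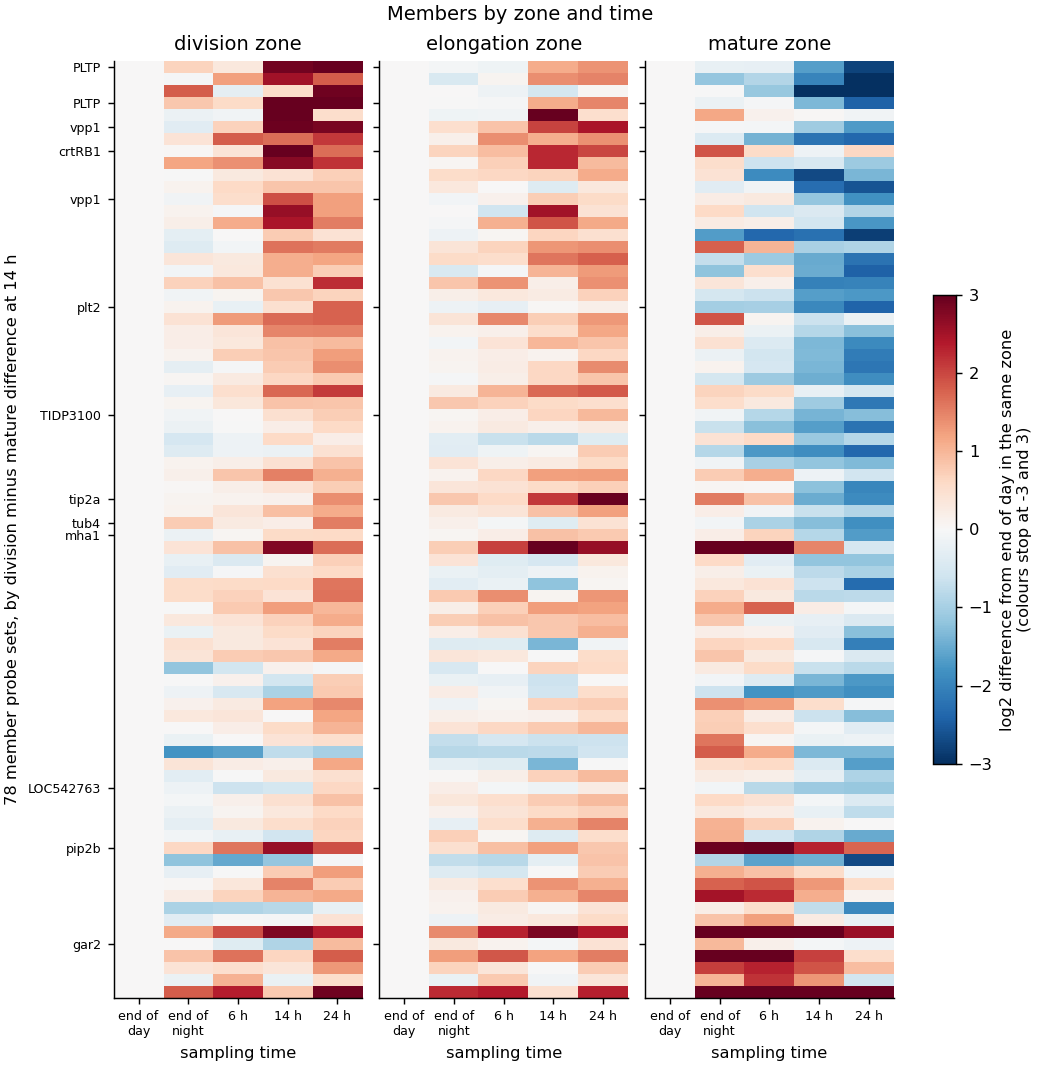
Each row is 1 of the 78 members and each column a sampling time; colour is the group mean minus the dusk mean of the same zone (log2), in the division, elongation and mature zones. Rows are ordered by the difference between the division and mature zones at 14 h, and most rows turn red to the right in both growth zones and blue in the mature zone. The bottom rows are mixed at 14 h: several are red in the mature zone, and some are pale or blue in a growth zone.

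The arrays taken at 14 h of extended night and at dusk were not used to choose the members, and they share a clock hour, so they show the same genes in independent samples. In the division zone 50 of 78 members were higher at 14 h and 6 lower, where 20.6% of all probe sets were called higher and 24% lower (limma, adjusted p under 0.05 over all 17555); the members' median difference was 0.61, against -0.05 over all probe sets. Of the same members 49 were lower and 11 higher in mature tissue, where 26.8% of all were called lower and 34% higher, with a median of -0.79 against 0.11. Other probe sets with a higher signal in mature tissue than at the base were counted in the same way: of 1433 that were no members and were at least 2 log2 units higher in the mature than in the division zone at dusk, 803 were called lower and 256 higher in the mature zone, with a median of -0.64. At the base 445 of these were called higher and 312 lower, with a median of 0.06. The dusk arrays chose this set, so its differences against dusk are not independent of the choice. The difference between the zones itself was larger in the division zone for 60 members and larger in the mature zone for 4, against 22.5% and 29.7% of all probe sets, with a median of 1.45 against -0.13. Both changes at the same time, higher in the division zone and lower in the mature zone, were called for 29 members, against 2.87% of all probe sets. Higher in the elongation zone and lower in the mature zone were 28 members, against 2.51%.

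**Figure D2:**
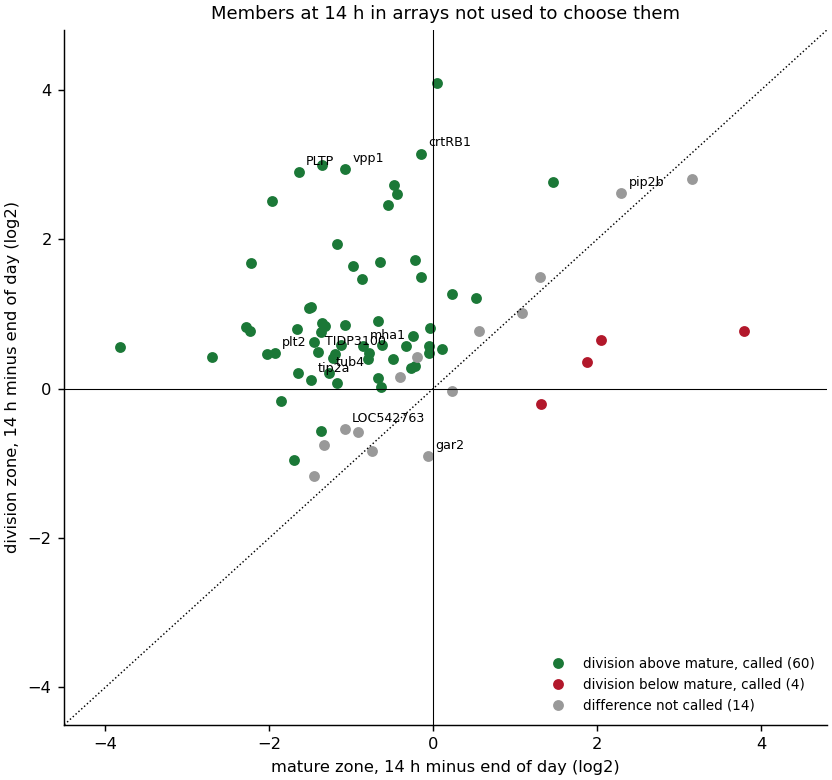
Each point is a member; the y axis is 14 h minus dusk in the division zone and the x axis the same difference in the mature zone (log2). Green points (60) had a larger difference in the division zone by limma, red points (4) a larger one in the mature zone and grey points (14) no called difference; the dotted line marks equal differences in both zones.

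Of the proton pump genes among the members, vpp1 gave large opposed changes and mha1 did not. vpp1 encodes a vacuolar pyrophosphatase, which uses pyrophosphate to pump protons into the vacuole, and was read by 2 member probe sets. With Zm.6063.1.A1_a_at the log2 signal in the division zone was 10.59, 10.89 and 10.76 at 14 h, against 7.64, 7.80 and 7.98 at dusk. Mature tissue had 11.45, 12.31 and 11.85 at 14 h, against 12.95 and 12.93 at dusk. The groups did not overlap in either zone. vpp1 rose by 2.94 ± 0.20 (log2 difference ± SE, adjusted p = 7.6e-14, limma) at the base and fell by 1.07 ± 0.22 (adjusted p = 8.3e-05) in the mature zone, and the zones differed by 4.01 ± 0.29 (adjusted p = 8.9e-13). The dimmer Zm.6063.2.S1_at moved the same way, by 1.94 at the base and -1.17 in the mature zone. Mature-zone signals were still between 12.83 and 13.01 at dawn and 6 h. The division zone at 24 h (10.36, 11.18 and 10.44) overlapped the mature zone at that time (11.49, 11.01 and 11.24), although at dusk the mature zone had been 5.13 log2 units higher.

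mha1, a plasma membrane proton ATPase that pumps protons out of the cell, was dimmer and less clear. Its member probe set Zm.13934.1.S1_at read 5.79, 7.60 and 7.46 in the mature zone at 14 h, against 7.52 and 8.09 at dusk, so that the groups overlapped; the fall was 0.86 ± 0.29 (adjusted p = 0.013, limma). At the base it read 6.75, 6.81 and 6.84 at 14 h, against 6.22, 6.41 and 6.06 at dusk, a difference of 0.57 ± 0.26 that missed the threshold (adjusted p = 0.080). The zones differed by 1.43 ± 0.40 (adjusted p = 0.0032). A further mha1 probe set that is no member, Zm.13934.1.A1_at, was called the other way in the mature zone (0.59, adjusted p = 0.00028) at a mean level of 5.78, under the dim level, so the probe sets of mha1 disagree. Of the 4 proton pump genes measured with 1 symbol, 2 rose and 0 fell at the base, and 2 rose and 2 fell in the mature zone. vpp3, a related pyrophosphatase gene that is no member, rose in both zones (0.68 at the base and 0.47 in the mature zone).

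PLTP, annotated as a lipid transfer protein gene, had the largest difference between the zones among the members. Its probe set Zm.19.2.S1_x_at read 9.43, 9.82 and 9.36 in the division zone at 14 h, against 6.38, 6.96 and 6.56 at dusk. Mature tissue had 8.84, 9.34 and 9.70 at 14 h, against 10.92 and 10.95 at dusk. Neither pair of groups overlapped, and by 14 h the 2 zones had come to lie at the same height. The rise at the base was 2.91 ± 0.28 (adjusted p = 3.2e-10), the fall in the mature zone 1.64 ± 0.31 (adjusted p = 3.2e-05) and the difference 4.55 ± 0.42 (adjusted p = 1.3e-10). Zm.2085.1.S1_s_at gave 2.99 and -1.36, but the letters x and s in these names mark probes that may also read related transcripts. The PLTP probe sets Zm.19.1.A1_a_at and Zm.19.1.S1_at, with means of 5.37 and 4.65 under the dim level, were no members. Their differences between the zones were 0.06 and -0.36 and were not called (adjusted p = 0.79 and 0.087, limma). Zm.19.1.S1_at was called higher in the mature zone at 14 h (0.43, adjusted p = 0.0065), so the probe sets of PLTP disagree. At 24 h the division zone arrays spread widely (10.98, 9.26 and 11.17).

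plt2, another lipid transfer protein gene, was most abundant in the elongation zone at every time, between 11.40 and 12.04. Its mature-zone signal was 6.39, 6.62 and 6.73 at 14 h, against 8.44 and 8.58 at dusk, and fell by 1.93 ± 0.27 (adjusted p = 2.3e-07). The division-zone difference of 0.48 ± 0.24 did not pass (adjusted p = 0.11), although the arrays did not overlap. They read 7.40, 7.23 and 7.20 at 14 h, against 6.67, 6.93 and 6.80 at dusk. At 24 h plt2 read 8.99, 7.68 and 9.02 there. Among the 5 cuticle, wax and lipid transfer genes measured, 1 rose and 0 fell at the base, and 1 rose and 4 fell in the mature zone; gl15, a regulator of juvenile leaf identity that affects epidermal wax, fell by 1.68 in the mature zone and was no member.

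The 2 aquaporin members behaved differently. tip2a, a water channel of the vacuolar membrane, read 9.10, 9.20 and 9.02 in the mature zone at 14 h, against 10.61 and 10.58 at dusk, and fell by 1.49 ± 0.39 (adjusted p = 0.0015). In the elongation zone it read 11.88, 11.08 and 11.48 at 14 h, against 9.26 and 9.44 at dusk, and rose by 2.13 ± 0.39 (adjusted p = 3.6e-05). At the base it read 7.40, 7.26 and 7.49 at 14 h, against 7.11, 7.44 and 7.23 at dusk, a difference of 0.12 ± 0.35 (adjusted p = 0.82). The opposed pattern of tip2a at 14 h thus lay between the elongation and mature zones, and its value at 24 h in the division zone rested on unequal arrays (8.58, 7.38 and 10.00).

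pip2b, a water channel of the plasma membrane, rose in both zones at 14 h. It read 8.02, 8.36 and 7.82 in the division zone at 14 h, against 5.28, 5.58 and 5.49 at dusk. Mature tissue had 7.38, 7.77 and 7.95 at 14 h, against 5.45 and 5.35 at dusk. The rises were 2.61 ± 0.14 and 2.30 ± 0.15 (adjusted p = 2.7e-16 at the base and 1.8e-14 in the mature zone), and the difference between the zones was 0.32 ± 0.20 (adjusted p = 0.20). It met the rule because its mature-zone level was already high at dawn (8.30, 8.48 and 8.21) and lower at 24 h (7.29, 6.99 and 7.17). Of the 22 aquaporin genes measured, 7 rose and 3 fell at the base, and 10 rose and 6 fell in the mature zone. tip4a, which is no member, had the lowest adjusted p of the list in the mature zone and fell there by 3.26, and it also fell by 0.60 in the division zone.

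crtRB1 encodes a beta-carotene hydroxylase of carotenoid synthesis. At the base it read 9.49, 10.19 and 9.35 at 14 h, against 6.67, 6.45 and 6.46 at dusk, a rise of 3.15 ± 0.18 (adjusted p = 1.4e-15). Its mature-zone signal was 10.06, 10.90 and 10.35 at 14 h, against 10.63 and 10.53 at dusk, with a difference of -0.15 ± 0.20 (adjusted p = 0.54). Its mature-zone signal was highest at dawn (12.52, 12.53 and 12.38) and in the division zone it was lower at 24 h (7.97, 8.46 and 8.16) than at 14 h. The zones differed by 3.30 ± 0.26 (adjusted p = 7.5e-12).

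tub4, a beta-tubulin gene, was most abundant in the elongation zone. Its mature-zone signal was 7.13, 7.17 and 8.07 at 14 h, against 8.84 and 8.62 at dusk, and fell by 1.27 ± 0.27 (adjusted p = 0.00011). At the base the difference was 0.20 ± 0.24 (adjusted p = 0.53), with arrays of 9.68, 8.66 and 9.25 at 14 h, against 8.88, 9.15 and 8.95 at dusk. Of the 12 tubulin genes measured, 9 fell and 0 rose in the mature zone, while 3 fell and 0 rose in the division zone.

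The remaining named members have no role stated here. TIDP3100 read 9.69, 9.74 and 9.87 in the mature zone at 14 h, against 11.18 and 11.15 at dusk, and 10.78, 10.88 and 10.81 in the division zone at 14 h, against 10.34, 10.32 and 10.34 at dusk. It rose by 0.49 ± 0.09 at the base and fell by 1.40 ± 0.10 in the mature zone, and the difference was 1.89 ± 0.13 (adjusted p = 5.3e-13). LOC542763 fell in both zones, by 0.54 at the base (adjusted p = 0.047) and by 1.08 in the mature zone (adjusted p = 0.00034), and the difference between them was 0.54 ± 0.33 (adjusted p = 0.17). gar2 passed no test of 14 h against dusk (-0.90 ± 0.53 at the base and -0.07 ± 0.59 in the mature zone). Its division-zone arrays did not overlap, with 11.24, 10.40 and 10.91 at 14 h and 11.68, 11.83 and 11.73 at dusk. The standard error pools all groups, and the mature arrays of gar2 at dawn read 10.37, 6.92 and 9.62.

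**Figure D3:**
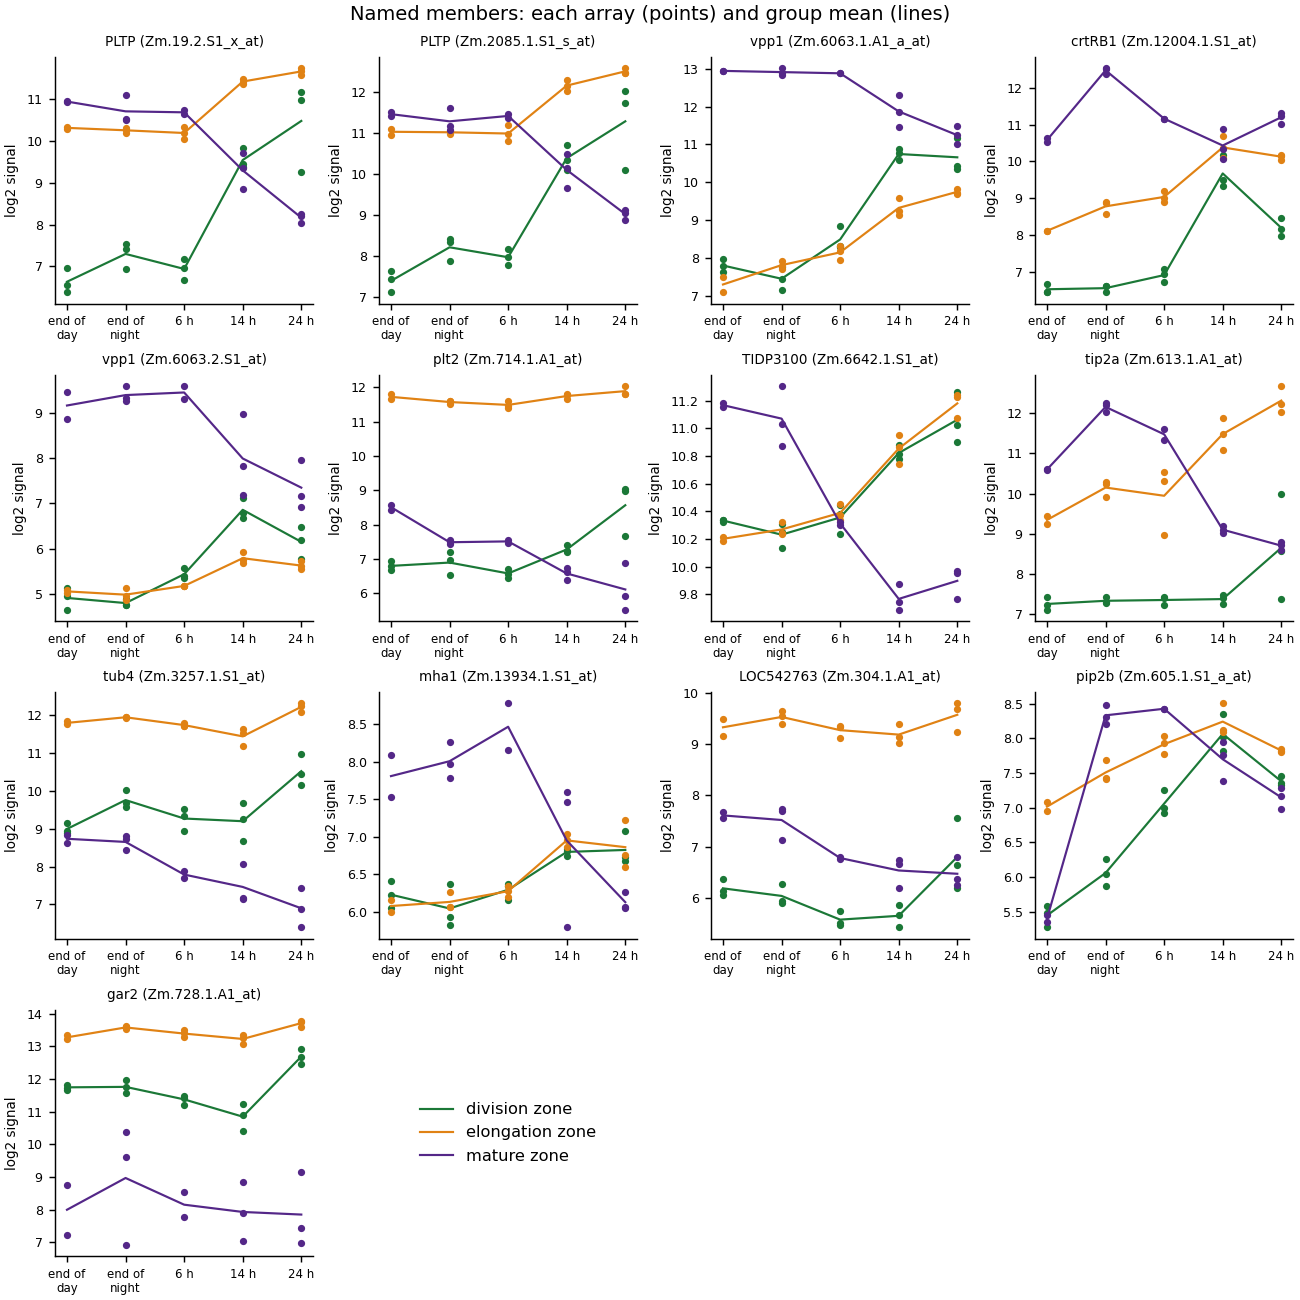
Log2 signal of the 13 named member probe sets in each array (points) with group means (lines) over the 5 sampling times, in the division (green), elongation (orange) and mature (violet) zones; each panel has its own y axis. The division and mature lines of TIDP3100 meet at 6 h and then move apart, those of PLTP, vpp1 and plt2 approach or cross between 6 and 24 h, and pip2b rises in all zones after dusk.

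Among the unnamed members, those with the lowest adjusted p for the difference between zones at 14 h were Zm.17253.1.S1_at, Zm.3331.1.A1_at, Zm.11819.1.A1_at, Zm.2603.2.A1_at, Zm.7501.1.S1_at and Zm.2603.1.A1_at. Zm.7501.1.S1_at read 8.17, 7.98 and 8.33 in the division zone at 14 h, against 5.61, 5.72 and 5.61 at dusk. Mature tissue had 6.19, 7.31 and 6.56 at 14 h, against 8.72 and 8.59 at dusk. The groups did not overlap in either zone, and the division-zone arrays lay below the mature ones at dusk and above them at 14 h. The difference between the zones was 4.49 ± 0.34 (adjusted p = 1.9e-12). Zm.11819.1.A1_at differed by 3.91 ± 0.29, Zm.3331.1.A1_at by 3.11 ± 0.19, Zm.2603.2.A1_at by 3.13 ± 0.23, Zm.17253.1.S1_at by 2.47 ± 0.13 and Zm.2603.1.A1_at by 1.65 ± 0.13. Zm.11819.1.A1_at read 5.44, 4.92 and 5.90 in the mature zone at 14 h, against 7.71 and 7.58 at dusk, and had already left that level at 6 h (6.54 and 5.92).

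The members called against the rule at 14 h fell into 2 kinds. Higher in mature tissue were 11, pip2b among them, and all 11 had their highest mature-zone mean at dawn or at 6 h. This follows largely from the choice. The rule excludes a peak at 24 h, and being called higher at 14 h excludes a peak at dusk. A peak at 14 h was possible, but 0 of all members had their highest mature-zone mean there. The timing thus does not set these 11 apart. Among the 11, Zm.11595.1.A1_at read 11.00, 10.60 and 10.83 in the mature zone at 14 h, against 7.15 and 6.88 at dusk. Its difference between the zones was -3.02 ± 0.28 (adjusted p = 1.5e-10, limma). Zm.11947.1.A1_at, Zm.19280.1.S1_at and Zm.4459.1.A1_at were the other members with a larger difference in the mature zone, by -1.39, -1.53 and -1.52. Lower at the base were 6, LOC542763 among them, and all 6 were also lower in the mature zone.

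The elongation zone, which the rule did not use, followed the division zone. At 14 h against dusk 47 members were higher there and 9 lower (21.7% and 23.8% of all probe sets), with a median of 0.63. Against the mature zone the elongation zone's difference was larger for 57 members and smaller for 7 (20.7% and 23.8% of all). Between the growth zones 14 members had a larger difference in the division zone and 4 in the elongation zone (3.2% and 3.36% of all). Members with the larger difference in the division zone included both PLTP probe sets (1.80 and 1.86), pip2b (1.39) and crtRB1 (0.88), and tip2a (-2.01) was the named member with the larger one in the elongation zone.
At 24 h against dawn, 46 members were higher in the elongation zone and 0 lower, where 21.8% of all probe sets were called higher and 20.6% lower (limma), and 0 were lower at an unadjusted p under 0.05. The members' median difference there was 0.61, against -0.05 over all probe sets, and 73 of the 78 lay above 0. tip2a rose by 2.16 ± 0.35, with 12.22, 12.03 and 12.68 at 24 h, against 10.23, 10.30 and 9.92 at dawn, and vpp1 by 1.93 ± 0.20, with 9.69, 9.73 and 9.83 at 24 h, against 7.93, 7.72 and 7.80. Called higher in the elongation zone at both 14 h and 24 h were 39 members, against 15.4% of all probe sets.

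**Figure D4:**
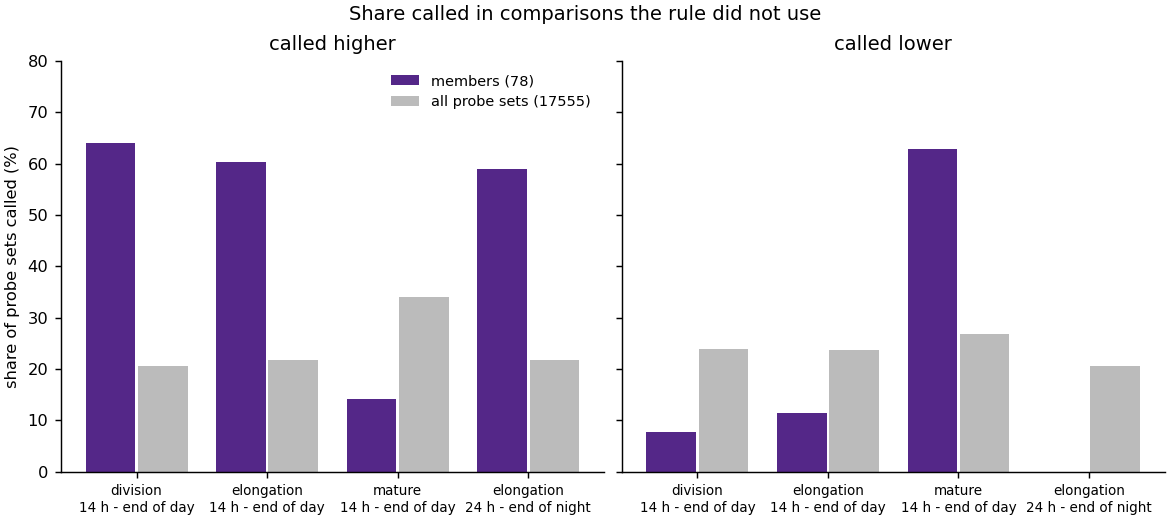
Bars give the share of probe sets called higher (left panel) or lower (right panel) by limma in 4 comparisons that the rule did not use, for the 78 members (violet) and all 17555 probe sets (grey). Members were called higher more often than all probe sets in the division and elongation zones and lower more often in the mature zone.

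At 6 h the pattern was only partly present. Against dusk, which is another clock hour, 24 members were higher and 4 lower in the division zone (6.51% and 6.91% of all), 29 higher and 2 lower in the elongation zone (8.14% and 9.51%), and 26 higher and 18 lower in the mature zone (28% and 25.5%). The mature-zone shares at 6 h were near those of all probe sets. TIDP3100 and plt2 were among the members already lower in the mature zone at 6 h, with differences of -0.86 (adjusted p = 6.3e-08) and -0.995 (adjusted p = 0.0051), whereas vpp1 stood at -0.06 (adjusted p = 0.84).

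The levels along the leaf show where the members started. A gene must have a measurable mature-zone signal to fall there, so some of this follows from the rule. At dusk 57 members were higher in the mature zone than in the division zone and 9 lower (35% and 38.7% of all probe sets), with a median difference of 1.42, and 50 were higher in the elongation zone than in the division zone and 4 lower (17.9% and 21%). Between the mature and elongation zones, 37 were higher in the mature zone and 19 lower (36.1% and 35.9%). At 14 h, 33 were higher in the mature zone than in the division zone and 30 lower (46% and 35.9%), with a median of 0.15. Of the 57 members higher in the mature zone at dusk, 32 were still called higher there at 14 h, 14 were not called and 11 were called lower. The matching shares over all probe sets called higher at dusk were not counted, so this split cannot be set against the whole array. With every array centred on its own median, the typical probe set of the whole array differed between these zones by 0.17 at dusk and 0.40 at 14 h, against 0.01 and 0.16 as deposited.

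Over the 5 times, dusk, dawn, 6, 14 and 24 h, the members' median difference between the mature and division zones was 1.42, 2.03, 1.51, 0.15 and -0.56, the values at dawn and at 24 h being those the rule acted on. The mature zone had the highest mean of the 3 zones for 44, 51, 43, 25 and 16 members at these times. In the division zone 53 members had their highest mean at 24 h and 21 at 14 h, and in the mature zone 61 had their lowest at 24 h. These counts follow in part from the rule, which set 24 h above dawn at the base and below it in the mature zone. The shares over all probe sets were not counted.

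**Figure D5:**
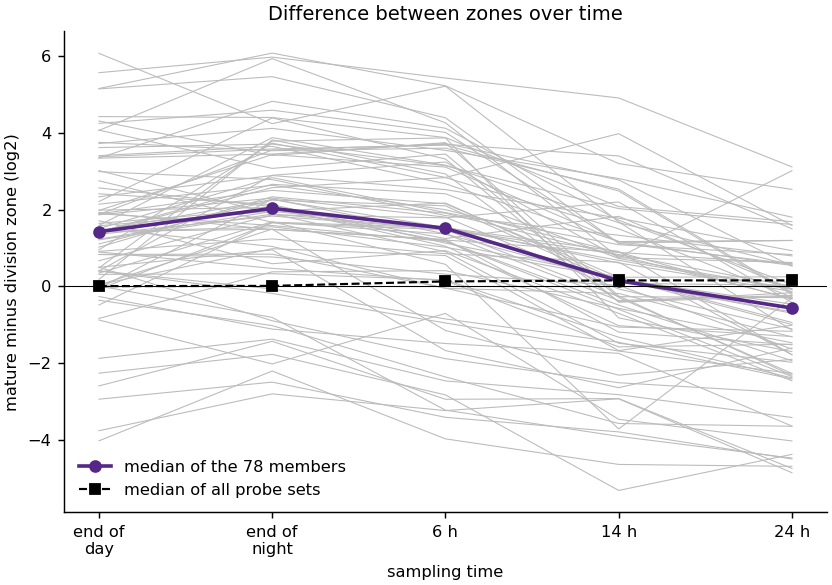
Grey lines are the 78 members' differences between the mature and division zone means (log2) at each sampling time, the violet line is their median and the dashed line the median of all probe sets. The members' median runs from 1.42 at dusk to -0.56 at 24 h, where the rule acted on the dawn and 24 h values.

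Signals of the neighbouring zone were also higher at the base at 24 h than at dawn, while those at 14 h overlapped dusk. Over 183 probe sets that were no members and were at least 2 log2 units higher in the elongation zone than in the division zone at dusk, the division-zone arrays averaged 6.74, 6.55 and 6.65 at 14 h, against 6.41, 6.56 and 6.46 at dusk, and 7.12, 6.91 and 7.32 at 24 h, against 6.62, 6.82 and 6.74 at dawn. The dusk arrays chose this set, so its differences against dusk are not independent of the choice. The array with the lowest of these means at 24 h, replicate 2, was the lowest for 19 of the 78 members, PLTP, plt2 and tip2a among them, and the highest for 46, among them vpp1, mha1, crtRB1 and TIDP3100. Of the 13 named member probe sets it was the lowest for 7 and the highest for 5. The rule used this array, and 13 members were lost without it, so these counts follow in part from the choice. The shares over all probe sets were not counted. The part of the shift in the neighbouring zone's signals in the members' rise was not tested. In the mature zone the 1433 probe sets higher there than at the base averaged 9.54, 9.72 and 9.71 at 14 h, against 10.35 on both arrays at dusk, and 9.55, 9.43 and 9.53 at 24 h, against 10.29, 10.27 and 10.02 at dawn. The part of this fall in the members' fall was not tested. The photosystem and light-harvesting list had 1 gene higher and 1 lower there at 14 h, and the 3 mesophyll markers averaged 13.40 to 13.48 at 14 h, against 13.78 to 13.84 at dusk, with 1 called lower and 0 higher. Of the 3 bundle sheath markers 0 were called in either direction there.

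Other genes of growth and photosynthesis, none of them a member, gave these counts. Of 12 cell cycle and DNA replication genes, 3 rose and 7 fell at the base at 14 h, and 2 rose and 1 fell in the mature zone. Of 22 expansin, xyloglucan enzyme and cellulose synthase genes, which act on the cell wall, 3 rose and 6 fell at the base, and 5 rose and 11 fell in the mature zone. Of 9 genes listed by symbol for the Calvin and C4 cycles, 0 rose and 5 fell at the base, and 0 rose and 3 fell in the mature zone. The list held pep4 and pep7, whose mature minus division difference at dusk was only 1.14 and 0.14, against 8.11 for pep1. Both were among those that fell at the base, and pep4 also fell in the mature zone. Whether pep4 and pep7 serve these cycles was not tested. Of the 3 KNOX genes, 1 rose and 0 fell at the base, and 1 rose and 1 fell in the mature zone.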

How the data were processed

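The deposited values are log2 signal intensities of the Affymetrix maize array, obtained by the authors through RMA per the submitters' processing notes. RMA corrects the background, makes the array distributions equal by quantile normalization and summarises the probes. No version or setting of it is named in these sources. Quantile normalization hides a shift shared by most genes of a zone. No array has a depth in reads, so precision is set by how many arrays a group has: the median standard error was 0.12 for 3 arrays against 3 and 0.13 for 3 against 2. Of 17734 probe sets, 113 control and 66 reporter probe sets were left out. 3 of the 45 columns held no values and 0 belonged to other series.

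A model with 1 mean per group (15 groups) was fitted by lmFit and eBayes in limma 3.58.1 (R 4.3.3), with 27 residual and 4.01 prior degrees of freedom, and the Benjamini-Hochberg adjustment was made over the 17555 probe sets for each of 14 comparisons; called means an adjusted p under 0.05. Whether the pools came from separate sowings is not stated, so the p-values measure the spread between these pools. For each probe set 1 spread was taken over all groups, but the median standard deviation over all probe sets was 0.10 in the division and 0.18 in the mature zone. Over the members it was 0.17 and 0.25. Standard errors can thus be too large at the base and too small in the mature zone. With the compared groups fitted alone, 57 members were called higher at the base and 42 lower in the mature zone, against 50 and 49. The fit was also run on simulated data, but there each probe set had the same spread in all zones. Unequal spread between zones was thus not tested. Gene symbols came from the annotation made for this platform, with 10 of the 11 named genes matched, for their names alone, in RefSeq (Zm-B73-REFERENCE-NAM-5.0). Named are all members with 1 symbol, the 6 unnamed ones with the lowest adjusted p for the difference between zones at 14 h, the 4 probe sets nearest each threshold and up to 4 members called the other way. The members, the lists and these rules were chosen with earlier results of these data known, and false symbol matches were taken out of the lists by hand after member values had been seen. Same-numbered arrays did not deviate together in the pairs checked (correlations of -0.35 to 0.12), so the numbers were not used as pairs. Checked were 14 h with dusk in each zone, 24 h with dawn in the elongation zone, and the mature with the division zone at dusk. Same-numbered arrays of different zones at 14 h were not checked, and the tests of the difference between zones took them as independent. Alternatives included median centring, array weights, a filter on dim probe sets and a trended prior. Others were fits of the compared groups alone, the replicate number as a block and leaving out each array. Promoter sequences were not analysed here.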

Additional observations from a re-analysis of the deposited data

Results flagged for a closer look

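The response to 14 h of extended night, taken against dusk, differed between the division and mature zones in 10 of the 13 named member probe sets. The test was of the difference itself (limma, log2, division minus mature), and it called 22.5% of all probe sets higher and 29.7% lower. The 6 unnamed members given below were picked by the lowest adjusted p of this same test, so their passing follows from the choice. Among the lipid transfer genes the difference was 4.55 and 4.35 for the member probe sets of PLTP and 2.41 for plt2. Among the proton pumps it was 4.01 and 3.11 for the vpp1 probe sets and 1.43 for the member probe set of mha1. It was 3.30 for crtRB1, 1.89 for TIDP3100, 1.62 for tip2a and 1.48 for tub4. Of the unnamed members, Zm.7501.1.S1_at differed by 4.49, Zm.11819.1.A1_at by 3.91, Zm.2603.2.A1_at by 3.13, Zm.3331.1.A1_at by 3.11, Zm.17253.1.S1_at by 2.47 and Zm.2603.1.A1_at by 1.65. For pip2b, LOC542763 and gar2 the difference did not pass. No group had more than 3 arrays, so single arrays were not tested as outliers.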

How the results depend on the processing

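No count of called members in the direction of the rule left 1.5 times its main value under any alternative that was run. The counts in the division zone at 14 h ranged over 44 to 58, in the mature zone over 42 to 49 and in the elongation zone over 41 to 49, and the difference between the division and mature zones over 53 to 60. The elongation zone at 24 h gave 43 to 56 and the mature zone above the division zone at dusk 57 to 60. With all arrays kept, the listed alternatives gave at least 50, 46 and 55 for the division zone, the elongation zone and the zone difference at 14 h. The lows of 44, 41 and 53 came from a setting not among those listed. Leaving out 1 array at a time gave 48 to 50, 43 to 50, 40 to 46, 54 to 61, 40 to 46 and 52 to 57 in the same order, where groups of 2 arrays were left with 1 whose spread was taken to be that of the others. With the replicate block the counts were 50, 49, 46, 60, 45 and 57 in that order, and the block changed no call of the difference between the division and mature zones in a named member. Of 304 values of named members under alternatives 303 kept their direction and side of the threshold; mha1 was the exception, with an adjusted p of 0.058 when the compared groups were fitted alone, and its difference ran from 0.85 to 1.75 as single arrays were left out. The count of members lower in the elongation zone at 14 h was 4 without replicate 1 of dusk, against 9 with it. After median centring the rule kept 52 probe sets, all among the 78, and with group medians 70, of which 63 were shared. The causes of these shifts were not tested. Mature-zone arrays received the lowest array weights (0.098 to 0.82, against 0.49 to 5.49 in the division zone), and 65 members without a name limit any account of function.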

Other observations

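Some unnamed members, singled out after their values were seen, had patterns that the comparisons above do not describe. Zm.3371.1.A1_at was bright at 14 h alone in the growth zones: it read 7.43, 8.31 and 7.47 in the division zone at 14 h, against 3.58, 3.51 and 3.84 at dusk, and 10.12, 8.51 and 7.89 in the elongation zone at 14 h, against 3.83 and 3.68 at dusk. At 24 h it was back at 4.19, 3.72 and 4.60 in the division zone. In the mature zone its highest array was replicate 1 at dawn, at 7.86, against 3.97 and 3.59 on the other arrays of that group, and without that array Zm.3371.1.A1_at no longer met the rule. Without the same array 15 of the 78 members were lost, gar2 and LOC542763 among them, and without replicate 2 of the division zone at 24 h 13 were lost, mha1 among them.

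Zm.7017.1.A1_at, bright in the mature zone with 13.59 and 13.61 at dusk, had the largest fall of all members there at 14 h, to 8.36, 11.43 and 9.53, a difference of -3.83 ± 0.59 (adjusted p = 1.2e-06, limma). In the elongation zone it read between 12.93 and 13.73 over all arrays.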
